A study of Homo sapiens with 7 samples.

Results

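CTCF peaks of HCT116 cells that lay apart from the histone marks of the same series are described here. They were selected by position from the deposited peak lists: a CTCF peak was kept when it overlapped no peak of H3K4me1, H3K4me3, H3K9Ac, H3K27me3 or H3K36me3 and lay more than 5 kb from every H3K27me3 peak. Of 44812 CTCF peaks, 18798 met this rule (41.9%, 95% Wilson interval 41.5 to 42.4%), and together they covered 12.5 Mb. They are called isolated CTCF peaks below, and the distance from histone peaks, having chosen them, is given only as a description. Wilson intervals in the text cover counting error in 1 library and no biological spread.

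HCT116 is an established human colorectal carcinoma line. The cells were grown in 96-well plates, crosslinked and sheared in the plate for 6 min a well in 100 µl with PIXUL, an ultrasound instrument that sonicates all wells of a plate. Each antibody was used on chromatin of a single well of 200000 cells, and each of the 7 marks has 1 library, with no treatment named in the labels. There is no replicate, so differences between classes of peaks are descriptions of these libraries, and the peak lists do not give the sequencing depth. H3K27Ac was not analysed here, so a peak called isolated can still carry that mark.

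CTCF is a DNA-binding protein with an array of zinc fingers that reads a long, directional sequence motif. It is known for blocking enhancers from acting across it and for halting the cohesin ring that extrudes chromatin loops, which are preferentially anchored where the motifs of a pair of sites point towards each other. H3K4me3 and H3K9Ac mark active promoters, H3K4me1 marks enhancers and promoter flanks, H3K36me3 marks transcribed gene bodies and H3K27me3 marks Polycomb-repressed chromatin.

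The other 26014 CTCF peaks were divided by mark. Of these, 7305 overlapped H3K4me3, 9166 overlapped H3K4me1 or H3K9Ac without H3K4me3, and 3055 overlapped H3K36me3 as the only one of the histone marks. Another 1929 overlapped H3K27me3, with or without H3K36me3, but not H3K4me3, H3K4me1 or H3K9Ac. The remaining 4559 overlapped none but lay within 5 kb of H3K27me3. As a check of the cell line, an H3K4me3 peak was present at the transcription start site (TSS) of the epithelial genes EPCAM, CDH1, KRT8, KRT18 and CDX2, with fold enrichments from 21.8 to 31.6. None was listed at the TSS of VIL1, an intestinal villus gene, of PTPRC, a blood cell gene, or of COL1A1, a fibroblast gene.

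The label of these peaks was checked against the lists. The nearest histone peak lay a median of 11653.5 bp away (quartiles 4379 and 35595 bp). It lay within 1 kb of 7.41% of the isolated peaks and within 5 kb of 27.3%, since the 5 kb limit applied to H3K27me3 alone. H3K4me1 was the nearest mark of 43.5%, H3K27me3 of 19.99%, H3K36me3 of 19.4%, H3K9Ac of 14.8% and H3K4me3 of 2.45%. The word isolated refers to histone marks, and the rule did not use the distance to other CTCF peaks. Of the isolated peaks, 66.9% had no other CTCF peak within 10 kb and 8.25% had none within 100 kb. The histone lists decide the number, because they hold weak peaks. Of 55270 H3K27me3 peaks, 1552 passed the limits of the study's methods for that mark, and of 40010 H3K36me3 peaks 90 did. If the histone lists were first cut to such limits, 31725 CTCF peaks would be isolated, with H3K36me3 almost absent from the rule.

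Sequences of the strongest isolated peaks are shown first, since they let the motif be seen at the sites with the highest signal. Each is 52 bases of hg19 (GRCh37), read 5′ to 3′ on the strand named, around the best match to a 12-base core of the CTCF motif. The core searched has 9 fixed bases, CCA, then 2 free bases, then AGG, then 1 free base, then GGC, and its place is in capitals. Fold enrichment is 1 value for the whole peak, a ratio over the background, as assigned by the peak caller.
chr12:94293-94344, + strand, fold enrichment 38.1: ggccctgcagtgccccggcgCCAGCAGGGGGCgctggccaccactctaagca
chr9:998767-998818, − strand, fold enrichment 36.8: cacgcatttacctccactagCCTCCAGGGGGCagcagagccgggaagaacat
chr4:48965210-48965261, − strand, fold enrichment 28.6: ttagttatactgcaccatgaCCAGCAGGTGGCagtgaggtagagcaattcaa
chr19:34269060-34269111, − strand, fold enrichment 27.5: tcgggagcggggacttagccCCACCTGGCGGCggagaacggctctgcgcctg
chr19:247185-247236, − strand, fold enrichment 26.7: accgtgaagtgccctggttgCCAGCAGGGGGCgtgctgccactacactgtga
chr17:61502910-61502961, + strand, fold enrichment 25.9: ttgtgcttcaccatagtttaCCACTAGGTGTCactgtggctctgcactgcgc
chr3:195577871-195577922, − strand, fold enrichment 24.3: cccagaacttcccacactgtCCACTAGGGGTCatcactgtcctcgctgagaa
chr1:545486-545537, + strand, fold enrichment 24.0: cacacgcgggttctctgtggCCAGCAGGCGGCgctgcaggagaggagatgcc
chr1:437902-437953, − strand, fold enrichment 23.9: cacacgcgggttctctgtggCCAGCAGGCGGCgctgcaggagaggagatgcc

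These are 9 of the 10 highest isolated peaks. The cores on chromosomes 12, 4 and 1, and the one at 247185 on chromosome 19, matched at all fixed bases, and the others differed from the core at 1 fixed base. Several of the peaks held more than 1 match of the same quality, from 3 in the peak on chromosome 12 to 18 in the peak at chr1:544464-546518, of which the one nearest the peak centre is shown. Both chromosome 1 windows, on opposite strands, had the same 52 bases. Near-identical copies elsewhere in hg19 (50% or more of the peak aligned, with 95% or more of its bases the same) were present for the peak on chromosome 12 (4 copies) and the peak at chr1:437371-438437 (1 copy). Where a peak has a copy, its reads can come from either place.

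Most of these strong peaks lay outside genes. The highest, chr12:93862-94806, lay 52718 bp from the nearest protein-coding TSS and under 100 kb from the end of the chromosome. The next, chr9:998218-999358, lay 22133 bp from the TSS of DMRT3, which encodes a transcription factor with a DM domain. The peak at chr4:48964944-48965690 lay outside genes, 22975 bp from the TSS of CWH43, and that at chr19:34268700-34269485 lay 18682 bp from the TSS of KCTD15. The peak at chr17:61502546-61503386 had its centre in an exon of TANC2, a gene for a synaptic scaffold protein, and the peak at chr3:195576637-195578292 lay in the lncRNA gene LINC01983, 38665 bp from the TSS of the mucin gene MUC4.

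The signal of the isolated peaks was moderate. Their fold enrichment had a median of 6.44 (quartiles 4.51 and 9.33, lowest 1.19, highest 38.1), against 7.87 (quartiles 4.79 and 12.01) in all other CTCF peaks. The class at H3K4me1 or H3K9Ac without H3K4me3 had the higher median of 10.01, and the class at H3K4me3 had 6.90 with a longer upper tail. A fold enrichment above 20 was found in 55 isolated peaks (0.293%, 0.225 to 0.381%), compared with 4.19% of the other peaks. The share was 9.47% at H3K4me3 and 4.12% at H3K4me1 or H3K9Ac without H3K4me3. It was 0.285% within 5 kb of H3K27me3, 0.156% at H3K27me3 and 0.131% at H3K36me3 only, so a low share was not particular to isolated peaks. Among the 10% of all CTCF peaks with the highest fold enrichment 15.2% were isolated (14.2 to 16.3%). Among the lowest 10% the share was 41.6% (40.2 to 43.0%), near the 41.9% over all CTCF peaks.

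**Figure D1:**
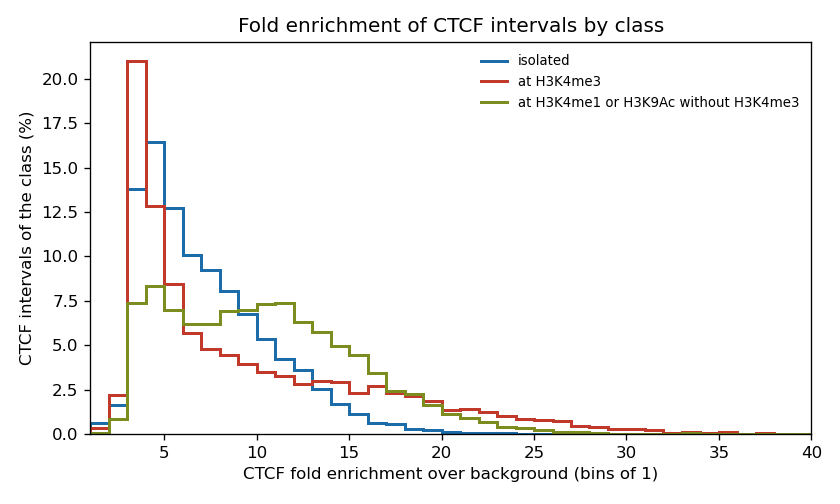
Share of the CTCF peaks of each class (y axis, percent) by fold enrichment in bins of 1 (x axis), for isolated peaks, peaks at H3K4me3 and peaks at H3K4me1 or H3K9Ac without H3K4me3. The isolated peaks had a median of 6.44, and 0.293% lay beyond 20. The bin from 3 to 4 held 13.8% of the isolated peaks, 21.0% of those at H3K4me3 and 7.39% of those at H3K4me1 or H3K9Ac.

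The study's methods set limits for histone marks and name none for CTCF. Those of the stricter group of marks, more than 5 in fold enrichment with a q-value under 1e-10, were applied here and were passed by 9242 isolated peaks (49.2%, 48.5 to 49.9%), where the background over all CTCF peaks was 54.8%. In the other CTCF peaks the share was 58.8% (58.2 to 59.4%). The median −log10 q-value was 9.77 in the isolated peaks and 13.9 in the others. The median width was 600 bp (quartiles 479 and 724 bp) against 706 bp. The classes at or near H3K27me3 were close to the isolated peaks in width. Peaks at H3K27me3 had a median width of 597 bp and fold enrichment of 5.97, with 41.8% past the limits (39.7 to 44.1%), and peaks within 5 kb of H3K27me3 had 611 bp, 7.04 and 54.0% (52.6 to 55.4%). Across the isolated peaks width rose with fold enrichment (Spearman's rho 0.62 over 18798 peaks of 1 library, given as a description).

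The DNA under isolated peaks was poorer in GC and in CpG than that under the other CTCF peaks as a whole. The median GC content was 42.6% (quartiles 37.1 and 48.5%) against 51.0% in the other CTCF peaks and 64.4% in those at H3K4me3. CpG dinucleotides had a median of 0.885 per 100 bp in isolated peaks, 1.90 in the others and 7.55 at H3K4me3. The classes without promoter or enhancer marks were closer, with a GC content of 44.4% at H3K27me3, 45.01% within 5 kb of it and 45.7% at H3K36me3 only, and with 0.986, 1.06 and 1.20 CpG per 100 bp. GC content hardly varied with fold enrichment among the isolated peaks (Spearman's rho −0.03).

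The CTCF core sequence was not used to choose the peaks. It was found at all 9 fixed bases, on either strand, in 2526 isolated peaks (13.4%, 13.0 to 13.9%), where the background over all CTCF peaks was 13.8%. The other CTCF peaks had 14.04% (13.6 to 14.5%), so the share in isolated peaks was near that of the rest. The same intervals moved by 10000 bp along the chromosome held it in 0.787% (0.671 to 0.924%). With 1 mismatch allowed, 55.7% of the isolated peaks held a core (55.0 to 56.4%), against a background of 58.9% over all CTCF peaks and 12.9% in the moved intervals. A match is a match of letters and does not show that the site was bound. The other peaks were wider, with more bases in which a match could fall.

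Where the core was present it lay close to the middle of the peak. The exact core was within 100 bp of the centre in 85.9% of the 2526 isolated peaks that had it (84.5 to 87.2%), and in 67.7% of the other CTCF peaks with a core (66.2 to 69.2%). The median distance from the centre was 34 bp in isolated peaks and 52 bp in the others, but 36 bp within 5 kb of H3K27me3 and 37.5 bp at H3K27me3. Of the isolated peaks with an exact core, 97.0% had a single match. At the free positions of the core the commonest base was C at the fourth (51.3%), C at the fifth (42.6%) and T at the ninth (50.2%). The base directly after the core, which the search did not use, was A in 58.4%.

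The core was more frequent in stronger peaks. Isolated peaks with an exact core had a median fold enrichment of 7.91, and those with no core even at 1 mismatch had 5.60. The share with an exact core was 6.83% at a fold enrichment up to 4 (5.98 to 7.79%), 13.7% from 6 to 8 (12.7 to 14.9%), 20.7% from 12 to 15 (18.7 to 22.8%) and 30.9% above 20 (17 of 55 peaks, 20.3 to 44.03%). At the same fold enrichment, CTCF peaks at H3K4me3 held the core less often in each bin up to 10, for example 7.82% from 6 to 8 (6.13 to 9.94%), with Wilson intervals apart from those of the isolated peaks. With 1 mismatch allowed this order did not hold: up to 4 it was 45.1% at H3K4me3 (42.7 to 47.4%) against 39.1% in isolated peaks (37.3 to 40.8%), and from 6 to 8 it was 63.2% (59.8 to 66.6%) against 57.7% (56.1 to 59.3%). Over the whole classes, moved intervals held such a core in 26.6% at H3K4me3 and 12.9% in isolated peaks. Up to 4, peaks at H3K4me3 had a median width of 618.5 bp and GC content of 69.1%, against 415 bp and 42.8% in isolated peaks. The part of width and GC content in these shares was not tested. For the exact core, the class at H3K4me1 or H3K9Ac had shares near those of the isolated peaks, with overlapping intervals in all 9 bins.

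**Figure D2:**
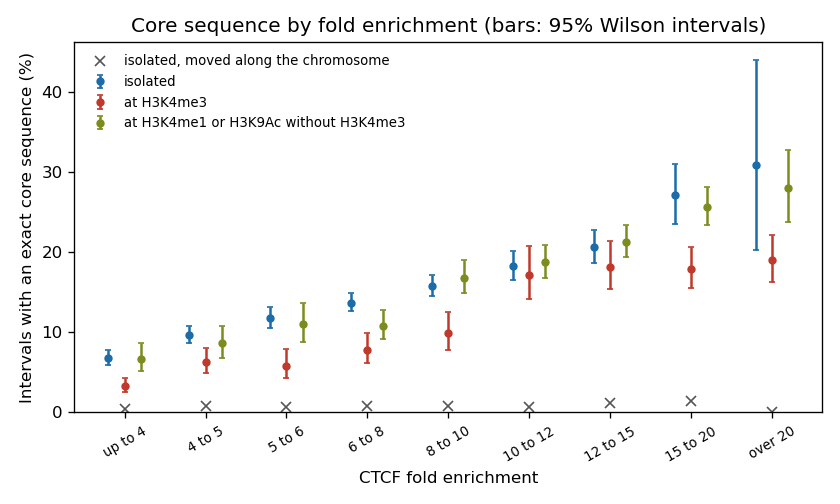
Share of CTCF peaks with an exact core sequence (y axis, percent) by fold enrichment bin (x axis) in 3 classes, with 95% Wilson intervals as bars. Crosses give the isolated peaks moved along the chromosome by 10000 bp. In isolated peaks the share went from 6.83% in the lowest bin to 30.9% in the highest.

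Isolated peaks were far from genes' start sites. The median distance from the peak centre to the nearest protein-coding TSS was 56052 bp (quartiles 21011 and 151568 bp), against 20822 bp in the other CTCF peaks and 566 bp in those at H3K4me3. The class most like it in this respect lay within 5 kb of H3K27me3, with a median of 65043 bp. Peaks at H3K27me3 lay farther still, at a median of 81778 bp. Within 1 kb of a protein-coding TSS there were 165 isolated peaks (0.878%, 0.754 to 1.02%), and 97.8% lay within 1 Mb. Counting the TSSs of all annotated genes, lncRNA genes and pseudogenes included, the median was 17445.5 bp. Absence of H3K4me3, which sits at active promoters, is part of the rule, so a distance from TSSs is partly built into the choice.

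**Figure D3:**
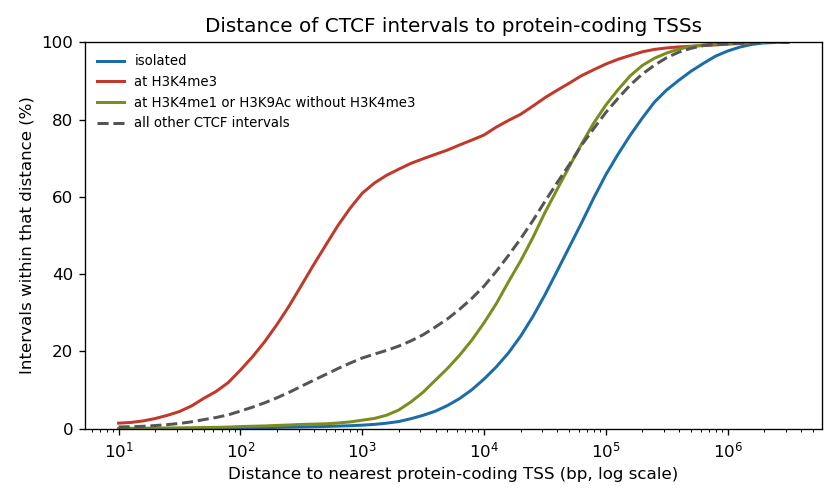
Cumulative share of CTCF peaks (y axis, percent) within a given distance of the nearest protein-coding TSS (x axis, bp, log scale) in isolated peaks, 2 classes with marks and all other CTCF peaks. The curve of the isolated peaks lies to the right of the other curves drawn, with a median of 56052 bp against 20822 bp in all other CTCF peaks. The classes at H3K27me3 (median 81778 bp) and within 5 kb of it (65043 bp) lay farther and are not drawn on their own.

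By gene annotation, 54.2% of the isolated peaks had their centre outside protein-coding genes (53.5 to 54.9%), compared with 44.1% of the other CTCF peaks (43.5 to 44.7%). The share was higher still within 5 kb of H3K27me3 (60.6%, 59.2 to 62.0%) and at H3K27me3 (58.4%, 56.2 to 60.6%). Assigning each isolated peak to 1 place, 40.9% were in introns of protein-coding genes, 4.34% in their exons, 15.4% in other genes such as those of lncRNAs, 38.4% in no gene and the rest within 1 kb of a coding TSS. Signal differed little between introns, exons and the space outside genes, with median fold enrichments of 6.67, 6.498 and 6.31. The 165 peaks near a TSS were weaker, at 5.55. The exact core was as frequent in introns (13.1%, 12.4 to 13.9%) as outside genes (13.8%, 13.0 to 14.6%) within counting error.

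Signal fell far from genes, whereas the share with a core did not. The median fold enrichment was 6.76 within 10 kb of a protein-coding TSS, 6.88 from 10 to 50 kb, 6.82 from 50 to 100 kb, 6.05 from 100 to 500 kb and 4.96 beyond 500 kb. Beyond 500 kb, 29.0% of 1405 isolated peaks passed the limits (26.7 to 31.4%), against 54.1% from 10 to 50 kb (52.9 to 55.3%). The exact core was found in 13.1% beyond 500 kb (11.4 to 14.96%) and in 13.8% from 10 to 50 kb (13.0 to 14.7%). GC content moved with the distance, from a median of 45.8% within 10 kb to 38.0% beyond 500 kb, and its part in the signal was not tested.

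Among the isolated peaks past the limits, those nearest to a TSS were mostly at clustered protocadherins. These genes encode neuronal cell adhesion proteins, and their promoters are a known place of CTCF binding. The peak at chr5:140571625-140572167 was centred 30 bp from the TSS of PCDHB10, with a fold enrichment of 7.16. It was followed by peaks 32 bp from PCDHB14 (6.94), 35 bp from PCDHB9 (9.96), 39 bp from WFDC10A, which encodes a small secreted protein with a WAP domain (9.97), and 46 bp from PCDHB13 (8.23). The peaks of PCDHB9 and PCDHB10 are shown because the cores read the same way and are followed by the same bases at first.
PCDHB9, chr5:140566633-140566684, + strand: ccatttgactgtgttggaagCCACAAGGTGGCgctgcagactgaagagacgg
PCDHB10, chr5:140571857-140571908, + strand: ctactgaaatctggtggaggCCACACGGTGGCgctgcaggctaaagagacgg

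Of the 165 isolated peaks within 1 kb of a protein-coding TSS, 27 were at these clustered genes. In the alpha cluster 8 of 15 genes had an isolated peak within 1 kb of the TSS, with fold enrichments from 3.19 to 6.66, none past the limits, and 7 of the 8 held a core at 1 mismatch. In the beta cluster it was 10 of 16 genes, from 3.73 to 9.96, with 5 past the limits and 3 with a core at 1 mismatch or less. In the gamma cluster it was 9 of 22 genes, from 3.51 to 7.14, with 1 past the limits and no core at 1 mismatch. Over all isolated peaks 49.2% passed the limits and 55.7% held a core at 1 mismatch or less. Over all CTCF peaks these shares were 54.8% and 58.9%. The share of all protein-coding genes with an isolated peak within 1 kb of the TSS was not counted. The peaks of the alpha genes had their centres a median of 242 bp downstream of the TSS, and those of the beta and gamma genes lay just upstream, at medians of −41.5 and −68 bp. Neighbouring promoters of these clusters share sequence, although of the 27 peaks only that of PCDHB13 had a near-identical copy by the measure used here.

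The peaks farthest from any protein-coding TSS, among those past the limits, were all on chromosome 4. The farthest, chr4:33650375-33651265, lay 2595316 bp from the TSS of ARAP2, in an lncRNA gene, with a fold enrichment of 9.81. Others lay 2439916 and 2340822 bp from PCDH7, and 2375990 and 2092371 bp from TENM3, both genes for neuronal adhesion proteins, with fold enrichments from 8.38 to 10.2. Of the 5 peaks, 2 held a core at 1 mismatch and are printed, and the other 3 differed from the core at 2 fixed bases.
2340822 bp from PCDH7, chr4:33062735-33062786, − strand: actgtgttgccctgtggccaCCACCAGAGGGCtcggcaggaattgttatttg
2092371 bp from TENM3, chr4:181072144-181072195, − strand: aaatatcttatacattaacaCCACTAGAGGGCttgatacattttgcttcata

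Spacing was broad. The gap between neighbouring isolated peaks had a median of 78611 bp (quartiles 26636 and 184174 bp, shortest 1311 bp), and 57.0% of 18774 gaps were up to 100 kb. The median gap was 152487 bp with only the CTCF peaks past the limits and 48681 bp with only the histone lists cut to their limits. The nearest CTCF peak of any kind lay a median of 18017.5 bp from an isolated peak, against 12825.5 bp from the other CTCF peaks. Windows of 1 Mb held a median of 6 isolated peaks (quartiles 3 and 9), and 123 of 2789 windows held none. Windows with 15 or more had a median of 8 protein-coding TSSs and windows with 1 to 4 had 2, so isolated peaks were not densest in gene-poor windows.

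Many isolated peaks followed each other directly in the order of all CTCF peaks. Both adjacent CTCF peaks were isolated too for 39.9% of them (39.2 to 40.6%), 1 was for 39.2%, and neither was for 20.8%. They formed 7604 unbroken runs, of which 3915 were a single peak and 42 held 20 peaks or more. Peaks in runs of 10 or more lay a median of 186546 bp from a protein-coding TSS, against 29013 bp for single peaks, had a lower median fold enrichment (5.76 against 6.69) and passed the limits less often (40.4%, 38.7 to 42.1%, against 52.4%, 50.8 to 53.9%). Their GC content was also lower, at a median of 38.1% against 46.1%.

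The longest runs were in gene-poor stretches. On chromosome 13, 45 peaks in a row spanned 67021148 to 73225693, a stretch of 6.20 Mb with the protocadherin gene PCDH9, the transcription factor gene DACH1 and KLHL1 as its only protein-coding genes. A second run on that chromosome held 43 peaks from 80937892 to 91698055, with SLITRK1, SLITRK5 and SLITRK6, which encode neuronal transmembrane proteins. On chromosome 4, 42 peaks from 131668919 to 137786764 surrounded PCDH10 and PABPC4L. The next were 37 peaks on chromosome 12 from 58376663 to 62518107, around TAFA2, SLC16A7 and LRIG3, and 37 on the X chromosome from 80670103 to 95801795, where PCDH11X and DACH2 lie. Across these 5 runs the median fold enrichment ranged from 4.64 to 5.65. In the order given, 15 of 45, 13 of 43, 13 of 42, 13 of 37 and 5 of 37 peaks passed the limits. The background was 49.2% over all isolated peaks and 54.8% over all CTCF peaks.

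The densest 1 Mb window was chr5:140000001-141000000, which holds the protocadherin clusters, with 32 isolated peaks, 67 protein-coding TSSs and 1 peak with a near-identical copy. The other 4 of the 5 densest windows were rich in duplicated sequence. The window at chr19:48000001-49000000 had 25 isolated peaks, of which 18 had a copy. That at chr15:30000001-31000000, with genes of the GOLGA8 family, had 23, of which 16 had a copy, and chr15:82000001-83000000, with GOLGA6L genes, had 21, of which 19 had a copy. The window at chr19:50000001-51000000 had 22, of which 12 had a copy, and its median fold enrichment of 10.4 was the highest of the 5 windows.

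The shortest gap, 1311 bp, was in the duplicated stretch of chromosome 19, about 21270 bp from the TSS of SULT2A1, a gene for a hydroxysteroid sulfotransferase. A gap of 1320 bp recurred in the same stretch. The left peaks of both pairs, with fold enrichments of 10.1 and 13.9 and 13 copies each, held identical sequence around the best core match, which is printed to show the repeat.
chr19:48410784-48410835, + strand: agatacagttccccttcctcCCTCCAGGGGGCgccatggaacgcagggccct
chr19:48421535-48421586, + strand: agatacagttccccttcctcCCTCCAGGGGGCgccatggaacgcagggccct

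Of the other 3 shortest gaps, 2 were on chromosome 2, near BMP10 (1312 bp, fold enrichments 10.98 and 8.46) and near RPIA (1325 bp, 9.49 and 16.7), and 1 on chromosome 12 near TCTN1 (1320 bp, 5.67 and 7.49), all without copies. In 4 of the 5 longest gaps, from 11105640 to 32031490 bp long, undetermined bases of hg19 made up 11100000 to 30050000 bp. The fifth of the longest gaps spanned 6730635 bp of chromosome Y.

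Near-identical copies were present for 1026 isolated peaks (5.46%, 5.14 to 5.79%), close to the 4.80% of the other CTCF peaks (4.55 to 5.07%). They were most frequent at both ends of the signal range. Copies were found for 18.7% of isolated peaks with a fold enrichment up to 3 (15.3 to 22.7%), 5.50% from 3 to 10, 3.71% from 10 to 20 and 12.7% above 20 (7 of 55 peaks, 6.30 to 24.0%). Of 43 isolated peaks under 100 kb from a chromosome end, 69.8% had a copy (54.9 to 81.4%). The widest isolated peaks were weak and lay beside centromeres: the 5 widest, of 9636 to 18273 bp on chromosomes X, 10 and 17, had fold enrichments from 1.34 to 1.76. All 11 that were wider than 5 kb lay within 5 Mb of an assembly gap of at least 1 Mb.

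CTCF motifs have a direction, and the orientation of neighbours was compared by gap. A pair is convergent when the core of the left peak reads on the plus strand and that of the right peak on the minus strand, divergent in the opposite case and tandem when both read the same way. With exact cores 364 neighbouring pairs up to 1 Mb apart could be read, of which 91 (25%) were convergent (20.8 to 29.7%), 26.4% divergent (22.1 to 31.1%) and 48.6% tandem (43.5 to 53.7%). With cores at 1 mismatch or less there were 5043 pairs, with 24.5% convergent (23.3 to 25.7%) and 25.4% divergent (24.2 to 26.6%). Of the peaks with 1 orientation, 50.1% read on the plus strand.

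With cores at 1 mismatch or less the convergent share differed by gap. At gaps up to 10 kb 15.2% of 597 pairs were convergent (12.6 to 18.3%) and 26.1% divergent (22.8 to 29.8%). At gaps from 200 kb to 1 Mb 29.4% of 1087 pairs were convergent (26.8 to 32.2%) and 22.6% divergent (20.2 to 25.2%). With the exact core the intervals overlapped, with 9 of 44 convergent up to 10 kb (20.5%, 11.2 to 34.5%), 21 of 61 from 50 to 100 kb (34.4%, 23.7 to 47.0%) and 19 of 74 from 200 kb to 1 Mb (25.7%, 17.1 to 36.7%). At 1 mismatch or less, tandem pairs made up 58.6% of the closest pairs (54.6 to 62.5%) and 47.9% of the most distant (45.0 to 50.9%). Without peaks that have a copy and outside the protocadherin clusters the convergent shares were 14.7% (11.9 to 17.95%) and 30.3% (27.6 to 33.1%). The other CTCF peaks went from 21.7% (19.6 to 23.9%) to 32.8% (29.3 to 36.7%), and at gaps up to 10 kb their interval lay above that of the isolated peaks.

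**Figure D4:**
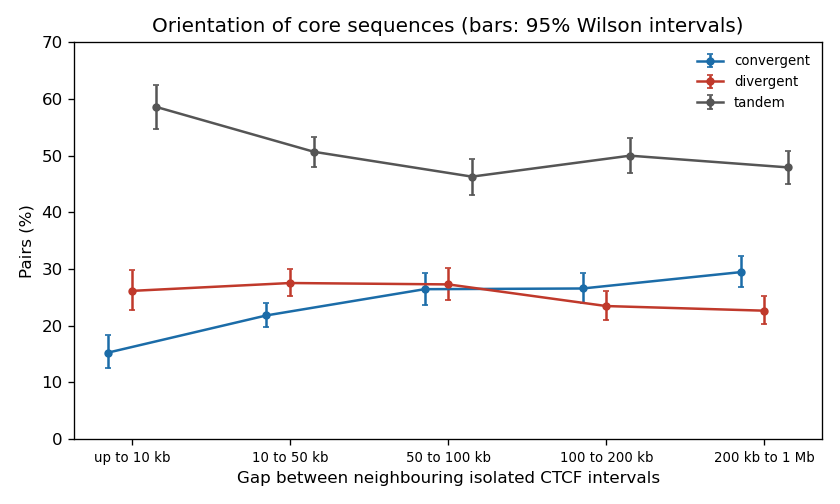
Share of convergent, divergent and tandem pairs (y axis, percent) among neighbouring isolated CTCF peaks by the gap between them (x axis), with cores at 1 mismatch or less and 95% Wilson intervals as bars. The convergent share goes from 15.2% at gaps up to 10 kb to 29.4% at gaps from 200 kb to 1 Mb.

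A convergent pair with high signal in both peaks is printed as an example, with the plus strand shown for both, so that the core of the right peak appears as its reverse complement. The left peak, chr6:39133961-39134724, had a fold enrichment of 15.9 and lay outside genes. The right peak, chr6:39277536-39278180, had 14.6 and lay in KCNK17, a potassium channel gene. They were 142811 bp apart, with 3 other CTCF peaks, none of them isolated, and 1 protein-coding TSS between them.
Left peak, chr6:39134343-39134394: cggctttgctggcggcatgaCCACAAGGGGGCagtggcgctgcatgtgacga
Right peak, chr6:39277873-39277924: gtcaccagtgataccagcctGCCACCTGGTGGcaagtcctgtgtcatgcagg

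Across chromosomes the density of isolated peaks varied less than their share. Chromosomes 1 to 22 and X had 5.18 (chromosome 13) to 7.88 (chromosome 19) isolated peaks per Mb of sequence. As a share of all CTCF peaks, isolated peaks ranged from 24.1% on chromosome 17 and 26.1% on chromosome 19 to 57.3% on chromosome 4 and 69.6% on X (890 of 1278 peaks). Over these 23 chromosomes the share went against the number of protein-coding genes per Mb (Pearson's r −0.69, Spearman's rho −0.80), while the density of isolated peaks had r 0.50 and rho 0.44, and the density of all CTCF peaks had r 0.89 and rho 0.89. These are descriptions over chromosomes of 1 library, and histone peaks, which the rule uses, also cover more of gene-rich chromosomes.

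**Figure D5:**
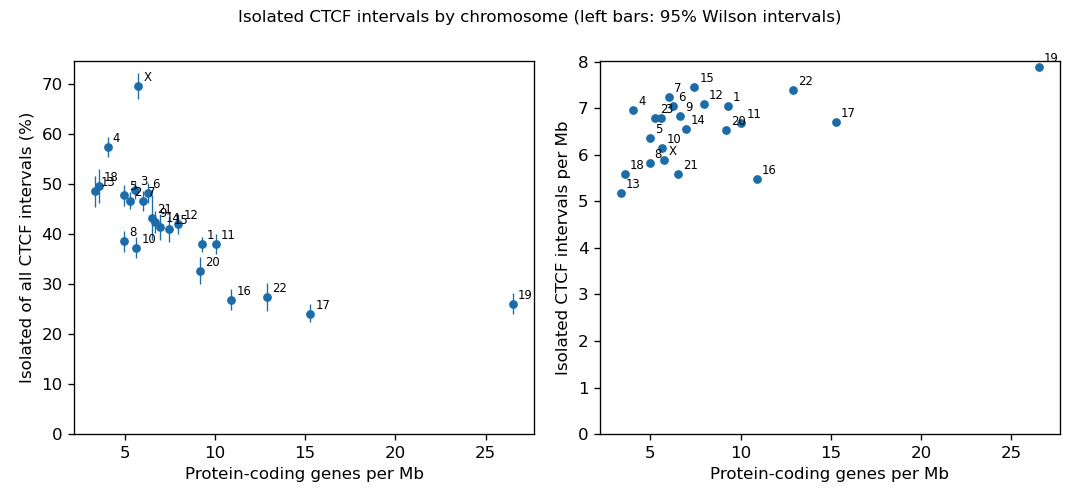
Isolated CTCF peaks by chromosome against protein-coding genes per Mb (x axis of both panels), as a percent of all CTCF peaks with 95% Wilson intervals on the left and per Mb on the right. Each point is 1 chromosome, labelled by name. X has the highest share, 69.6%, and a density of 5.89 per Mb.

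The X chromosome stood apart in signal. Its isolated peaks had a median fold enrichment of 5.48 against 6.53 on chromosomes 1 to 22, and 27.8% passed the limits (24.9 to 30.8%) against 50.3% (49.6 to 51.0%). The exact core was found in 14.8% of them (12.6 to 17.3%) and in 13.4% on chromosomes 1 to 22 (12.9 to 13.9%), so the share with a core did not move with the signal. The other CTCF peaks of X were also weaker, with 43.8% past the limits (39.0 to 48.8%) against 59.1% (58.5 to 59.7%). H3K4me1 peaks covered 0.953% of X and H3K27me3 peaks 1.70%, less than on any of chromosomes 1 to 22, where the lowest were 1.89% and 4.24%.

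Genes with the most isolated peaks were long. Of 20163 protein-coding genes, 4910 had at least 1 isolated peak in the gene body (24.4%, 23.8 to 24.9%). The gene with the most, 17, was the long X-linked gene ENSG00000250349. Next were CTNNA3, an alpha-catenin gene, HDAC9, a histone deacetylase gene, PLCB1, a phospholipase C gene, and SMYD3, a lysine methyltransferase gene, with 13 each. ANK3, the ankyrin-G gene, and SLC35F3 had 12 each, and BBS9, GALNTL6 and GLIS3 had 11 each. All 10 were longer than 400 kb, from 420 kb for SLC35F3 to 1851 kb for CTNNA3. In HDAC9, SMYD3 and GALNTL6 every CTCF peak of the gene body was isolated, and in these 10 genes at most 1 isolated peak lay in an exon.

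Genes with and without an H3K4me3 peak at the TSS were compared by length, as a description, since the rule uses that mark. Of genes up to 10 kb long, 1.36% with H3K4me3 had an isolated peak in the body (0.957 to 1.94%) and 3.57% without (2.97 to 4.29%). Of genes from 10 to 50 kb it was 11.3% with the mark (10.5 to 12.2%) and 19.6% without (18.2 to 21.1%). Of genes from 200 to 500 kb the order was the opposite, with 84.4% (81.6 to 86.8%) and 69.0% (64.5 to 73.1%). Per Mb of gene body, genes of 10 to 50 kb had 4.92 isolated peaks with the mark and 9.66 without it, and genes over 500 kb had 6.66 and 3.62.

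Gene groups fixed by symbol differed widely in how many members held an isolated peak. Over all protein-coding genes the share was 24.4%, with 6.69 isolated peaks per Mb of gene body. Protocadherins had 37 of 66 genes (56.1%, 44.1 to 67.4%) and 16.3 per Mb, although the bodies of the clustered genes overlap, so 1 peak is counted under several of them. Genes for contactins and contactin-associated proteins, long neuronal adhesion genes, had 9 of 13 (69.2%), and glutamate receptor genes 16 of 33. GABA receptor genes had 8 of 19, cadherins 12 of 28 and potassium channel genes 32 of 95. Per Mb of gene body all of these but the protocadherins were below the 6.69 of all protein-coding genes. Contactins and contactin-associated proteins had 2.81 per Mb, glutamate receptors 5.69, GABA receptors 3.92, cadherins 3.22 and potassium channels 5.28. At the low end of the share were short genes. Olfactory receptor genes had 9 of 415 (2.17%, 1.15 to 4.07%), cytoplasmic ribosomal protein genes 4 of 86, HOX genes 2 of 39, genes with the DEF symbol, mostly defensins, 1 of 48, immunoglobulin and T-cell receptor segments 4 of 389, which with their short bodies came to 18.3 per Mb from 4 peaks, and keratin-associated protein genes 0 of 94, which allows up to 3.93% by the Wilson interval. Zinc finger genes had 71 of 516 (13.8%, 11.1 to 17.0%) and 4.87 per Mb. Ribosomal protein genes had 6.02 per Mb, HOX genes 5.01, genes with the DEF symbol 3.75 and olfactory receptor genes 3.66.

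Loci known for CTCF or for long-range regulation were read with 100 kb on either side, where 41.9% is the share of isolated peaks among all CTCF peaks. At CFTR, the chloride channel gene of cystic fibrosis, 8 of 9 CTCF peaks were isolated, with fold enrichments from 4.14 to 10.7. Of the 8, 5 passed the limits, where the background was 49.2% over all isolated peaks and 54.8% over all CTCF peaks. In order along chromosome 7 the starts of the 8 peaks were 116852844, 116952618, 117039781, 117098938, 117309927, 117313831, 117355695 and 117390549. The peak at chr7:117098938-117099654 lay 20783 bp from the CFTR TSS with a fold enrichment of 9.24, and the peak at chr7:117313831-117314467, with 7.80, held the exact core. Both are printed since they lie on either side of that TSS and their cores read on opposite strands, the left one on the plus strand and the right one on the minus strand.
Left of the pair at CFTR, chr7:117099211-117099262, + strand: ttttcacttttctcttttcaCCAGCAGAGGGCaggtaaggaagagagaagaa
Right of the pair at CFTR, chr7:117314082-117314133, − strand: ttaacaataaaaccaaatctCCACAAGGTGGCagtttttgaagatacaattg

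The protocadherin clusters were next in share, with 13 of 15 CTCF peaks isolated at the beta cluster, 10 of 15 at the alpha cluster and 11 of 19 at the gamma cluster, whose flanks overlap. Around H19 and IGF2, an imprinted pair, 7 of 18 were isolated, near the 41.9% of all CTCF peaks, with fold enrichments from 4.03 to 12.4. At APOA1 it was 4 of 7, at the alpha-globin genes 3 of 6, at the beta-globin genes 2 of 8, at LCT 2 of 7, at WNT6 2 of 7 and at KCNQ1, in an imprinted domain, 3 of 14. SOX9 and EPHA4 had 1 of 3 each. At the HOX clusters, which specify the body axis, 2 of 15 were isolated at HOXA, 1 of 20 at HOXB, 1 of 7 at HOXC and 1 of 10 at HOXD. H3K4me1 overlapped 12 of the 15 at HOXA, 16 of the 20 at HOXB, 4 of the 7 at HOXC and 5 of the 10 at HOXD. Over all CTCF peaks this overlap was 31.8%. None was isolated at SHH (0 of 6), PAX3 (0 of 2) or MYC (0 of 3).

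The peaks nearest to the 5 kb limit are given as a description. Just beyond it lay a peak in DYSF at 5001 bp from H3K27me3, with a fold enrichment of 10.8, and peaks at 5003 bp near HNRNPA1L2 (10.8) and LGALS9B (7.48). Just within it, and so left out, were peaks in XDH at 4999 bp (3.61), in LMBR1L at 4998 bp (9.40) and in FSTL4 at 4996 bp (14.1).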

How the data were processed

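Peak lists of 6 marks in HCT116 cells, 1 PIXUL-ChIP-seq library each, were used, and H3K27Ac was not analysed here. The methods state alignment to hg19 with BWA 0.7.12 and calling of broad peaks with MACS2 (broad cutoff 0.1). The submitters' processing notes also list MACS 1.4.2, SAMtools 0.1.19 and bcl2fastq 2.20.0.442. The fold enrichment that the authors deposited is a linear ratio over the peak caller's background. Significance was deposited per peak, as a −log10 p-value and a −log10 q-value of the peak caller. A display score was also deposited and was not used. Peak names of the H3K27me3 list do not hold the cell line's name, unlike those of the other 5 lists.

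All peaks as deposited entered the rule. The methods name no limits for CTCF, and those stated for histone marks other than H3K4me1, H3K27me3 and H3K27Ac were applied to it. Overlap was at least 1 bp, distance was counted between ends, and overlaps were checked with bedtools 2.31.1 (0 lists differed). Genes were those of GENCODE 44 on GRCh37 (20163 protein-coding of 64449), with the canonical TSS where one is tagged. The core was searched on both strands of GRCh37. Undetermined bases counted as no match and occurred in 20 isolated peaks. Copies were searched with minimap2 2.31 for every CTCF peak. Tables were handled in pandas 2.3.3 and numpy 2.4.6 under Python 3.11.15, sequences in pyfaidx 0.9.0.4, intervals of shares in scipy 1.17.1 and plots in matplotlib 3.10.9. Code was tested on simulated data with known answers. Peaks were named by rule: the 10 highest, the 5 nearest to and farthest from a coding TSS past the limits, the 5 widest, those beside the 5 kb limit, the 5 shortest and longest gaps, the 5 longest runs and the 5 densest windows. The 10 genes with most peaks and fixed lists of loci and gene groups were also named, and the printed pairs at CFTR and on chromosome 6 were chosen after their values were seen. Members and lists were chosen with earlier results of these data known. With 1 library a mark there was no test between conditions.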

Additional observations from a re-analysis of the deposited data

How the results depend on the processing

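Of 72 recomputed values 28 stayed within the 95% interval of the reported value, or within 1.5 times the count, and 44 moved. None could change sign, since all are counts, shares, fold enrichments, distances or gaps. The reported values are 18798 isolated peaks, 41.9% of CTCF peaks, median fold enrichment 6.44, TSS distance 56052 bp, 54.2% outside protein-coding genes, gap 78611 bp, 13.4% with the exact core and 25% convergent pairs. The cause of the moves was not tested beyond what each alternative's construction fixes, such as fewer peaks in a list. With the CTCF list past the limits of the methods there were 9242 isolated peaks (37.7%), with fold enrichment 9.38, TSS distance 48180 bp, 52.4% outside genes, gap 152487 bp and core 17.1%. The limits kept 90 of 40010 H3K36me3 peaks, so a cut of the histone lists left that mark almost out of the rule. With all 6 lists past the limits the share was 68.8%, fold enrichment 9.79, TSS distance 42131 bp, 49.9% outside genes, gap 86162 bp and core 17.8%. With no distance limit these were 52.1%, 6.55, 57734 bp, 55.5% and 67788 bp. At more than 20 kb from H3K27me3 they were 34.4%, 6.36, 59296 bp, 53.0% and 87901 bp. At more than 5 kb from all 5 histone lists they were 30.5%, 6.31, 72202 bp, 59.1% and 104390 bp. The TSSs of all genes gave 17445.5 bp, the bodies of all genes 38.7% outside, 1 mismatch 55.7% with a core, a free eighth base 27.2%, and the nearest CTCF peak of any kind a gap of 18017.5 bp. The convergent share stayed within its interval under every alternative run, from 24.1 to 29.4%.

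The other 3 alternatives were chosen after seeing the data. With only the histone lists past the limits there were 31725 isolated peaks (70.8%), with fold enrichment 6.90, TSS distance 48725 bp, 50.6% outside genes, gap 48681 bp and core 14.1%. Without peaks that have a near-identical copy, 52.6% were outside genes and the gap was 81968 bp. On chromosomes 1 to 22 only, the share was 41.1% and the fold enrichment 6.53. No paired analysis was possible because there is a single library of every mark. Depth is unknown and can change which peaks are listed.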
